A study of Homo sapiens with 10 samples.

Results

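The constitutive proteasome genes encode the proteolytic core particle (20S), the regulatory particle (19S), the chaperones that assemble both, and the alternative caps and regulators of the core. Members were taken by symbol, as every row named PSMA to PSMG with a number in all 10 tables. The catalytic subunits PSMB5, PSMB6 and PSMB7, their interferon-inducible replacements PSMB8, PSMB9 and PSMB10, and the interferon-linked cap genes PSME1 and PSME2 were left out. This gave 40 members, of 36546 genes in the tables of the interferon experiment and 22609 genes in those of the knockdown experiment. They lie on 17 chromosomes.

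RNA had been sequenced from KYSE30, KYSE180 and KYSE450, established human cell lines of esophageal squamous cell carcinoma, at passages 5 to 10. In the first experiment, each of the 3 lines gave 1 library from cells treated with interferon-beta (IFN-β, an antiviral type I interferon) at 1000 IU/ml for 72 h and 1 library from untreated control cells, which received PBS. In the second experiment, KYSE30 and KYSE180 each gave 1 library from cells infected with lentivirus for knockdown of IRF1-AS, the non-coding RNA on the strand opposite the transcription factor gene IRF1, and 1 library from vector control cells. Values are FPKM, reads scaled to gene length and library total, so levels of different genes are per unit of length. There is 1 library for each line and arm, so for the treatment effects the lines are the replicates. For differences between lines, the treated and control libraries of each line stand in for its replicates. The error of both is the scatter left after treatment and line are fitted. No p-value here measures the spread between cultures of 1 line.

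In the core particle, outer rings of alpha subunits gate the entry of proteins and inner rings of beta subunits hold the peptidase sites. The 19S particle has a base, whose ATPases unfold the substrate, and a lid, which removes the ubiquitin chains that mark it. Subunits are needed in fixed proportions, and their genes are known to be induced together by the transcription factor NFE2L1 when proteasome activity falls. Interferons are known for the exchange of catalytic beta subunits and for the cap made by PSME1 and PSME2, none of which is counted among the members.

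The promoters below are shown because these 4 genes differed in level between KYSE180 and KYSE30 in both experiments. Each runs from 250 bases before to 50 bases after the RefSeq start of the gene, 5′ to 3′ on the strand of the gene, from GRCh38.p14. Capitals mark matches on either strand to 3 motifs: the antioxidant response element core bound by NFE2L1 (TGACNNNGC), the interferon-stimulated response element (GAAA, any 2 bases, GAAA) and the CCAAT box (CCAAT). PSMA1 has none of the 3, PSMB2 has a CCAAT box, PSME4 has an antioxidant response element core on the opposite strand, and PSMG4 has an interferon-stimulated response element.
PSMA1 (chr11:14520337-14520636, minus strand): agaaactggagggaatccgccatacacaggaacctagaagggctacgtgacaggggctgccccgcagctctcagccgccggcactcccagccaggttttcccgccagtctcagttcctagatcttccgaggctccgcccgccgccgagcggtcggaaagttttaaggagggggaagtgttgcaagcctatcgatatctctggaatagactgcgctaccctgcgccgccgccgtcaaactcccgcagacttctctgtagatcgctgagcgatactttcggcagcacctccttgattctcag
PSMB2 (chr1:35641477-35641776, minus strand): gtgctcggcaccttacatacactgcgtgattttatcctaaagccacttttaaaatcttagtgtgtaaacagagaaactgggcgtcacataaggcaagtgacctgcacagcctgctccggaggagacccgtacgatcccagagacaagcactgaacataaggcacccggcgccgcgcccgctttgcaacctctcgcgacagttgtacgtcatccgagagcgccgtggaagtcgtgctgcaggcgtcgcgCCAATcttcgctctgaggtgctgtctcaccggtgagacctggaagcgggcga
PSME4 (chr2:53970944-53971243, minus strand): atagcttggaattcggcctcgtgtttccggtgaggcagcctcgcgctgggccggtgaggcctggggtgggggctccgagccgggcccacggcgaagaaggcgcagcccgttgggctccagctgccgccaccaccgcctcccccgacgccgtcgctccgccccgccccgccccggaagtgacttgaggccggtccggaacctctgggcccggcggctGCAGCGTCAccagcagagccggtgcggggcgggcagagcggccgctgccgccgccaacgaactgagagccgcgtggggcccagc
PSMG4 (chr6:3258697-3258996, plus strand): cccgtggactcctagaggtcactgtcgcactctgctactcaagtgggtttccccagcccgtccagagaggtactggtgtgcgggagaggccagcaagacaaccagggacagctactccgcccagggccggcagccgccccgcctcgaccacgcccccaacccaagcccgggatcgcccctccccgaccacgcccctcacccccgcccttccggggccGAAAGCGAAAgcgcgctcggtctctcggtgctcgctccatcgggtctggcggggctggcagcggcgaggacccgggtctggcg
Of the 40 members, 36 matched the RefSeq promoter table. The antioxidant response element core was present in 12 of the 36 (33.3%), against 16.1% of the 27305 genes in the table, and its carriers included PSMA4, PSMC4, PSMD1, PSMD12 and PSMG1. The CCAAT box was present in 18 of 36 members (50%), against 39.7% of genes, and the interferon-stimulated response element in PSMA4, PSMB4 and PSMG4 (8.33% of members, against 4.38% of genes). A match describes the letters of these windows and is not a measured binding site.

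Before the members are compared, 4 properties of the tables bear on them. In KYSE450 the deposited values of the median gene were higher in the IFN-β library than in the untreated library by 0.411 on the log2 scale, so changes are given after median-of-ratios scaling and deposited values beside them where the direction differs. The experiments were normalized separately, so levels are compared within an experiment. The row taken for IRF1-AS, C5orf56, stood at 3.04 FPKM in knockdown KYSE30 and 6.86 FPKM in vector KYSE30, and at 0.948 FPKM in knockdown KYSE180 and 1.08 FPKM in vector KYSE180. All 8 squamous epithelial markers reached 1 FPKM in all 10 libraries, none of 5 leukocyte markers did in any, and the summed squamous markers were lowest in KYSE30 (212 to 984 FPKM, against 3950 to 9498 FPKM in the other lines). Of 7 fibroblast and endothelial markers, 2 reached 1 FPKM in untreated KYSE180 and 1 in IFN-β-treated KYSE180. In each library of the knockdown experiment 1 of them did, and their highest sum was 6.28 FPKM, in knockdown KYSE180.

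Most constitutive proteasome genes were abundant in every library. In bulk RNA, fewer cells with a transcript and less of it in each cell cannot be told apart. In the interferon experiment the median level over the 38 members that passed the filter (at least 1 FPKM in 3 libraries) was 159 FPKM in IFN-β-treated KYSE450 and 117 FPKM in untreated KYSE450, 112 FPKM in IFN-β-treated KYSE180 and 92.1 FPKM in untreated KYSE180, and 122 FPKM in IFN-β-treated KYSE30 and 127 FPKM in untreated KYSE30. Between 92.1% and 94.3% of all genes at 1 FPKM or more lay below these medians. In the knockdown experiment the medians were 62.4 FPKM in knockdown KYSE180 and 61.4 FPKM in vector KYSE180, and 75.7 FPKM in knockdown KYSE30 and 58.3 FPKM in vector KYSE30.

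The core rings were the most abundant group per unit of length. Over the 6 libraries of the interferon experiment, the library median of the beta ring lay between 264 and 439 FPKM and that of the alpha ring between 192 and 306 FPKM. The 19S base followed at 119 to 184 FPKM and the lid at 76.0 to 159 FPKM. The assembly chaperones of the core, PSMG1 to PSMG4, had library medians of 49.5 to 86.7 FPKM, the chaperones of the base, PSMD5, PSMD9 and PSMD10, 22.3 to 44.1 FPKM, and the alternative caps and regulators 12.1 to 34.1 FPKM. These ranges of library medians overlapped between neighbouring groups, except that the alpha ring lay above the base, and the core chaperones above the base chaperones. Single genes of these groups did overlap, with averages of 193 FPKM for PSMA5 and 215 FPKM for PSMD2, and of 19.8 FPKM for PSMG4 and 62.8 FPKM for PSMD10. In the knockdown experiment the library medians overlapped too. They were 92.3 to 132 FPKM for the alpha ring and 70.4 to 122 FPKM for the base. The core chaperones had 25.3 to 35.8 FPKM there and the base chaperones 23.6 to 27.2 FPKM.

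**Figure D1:**
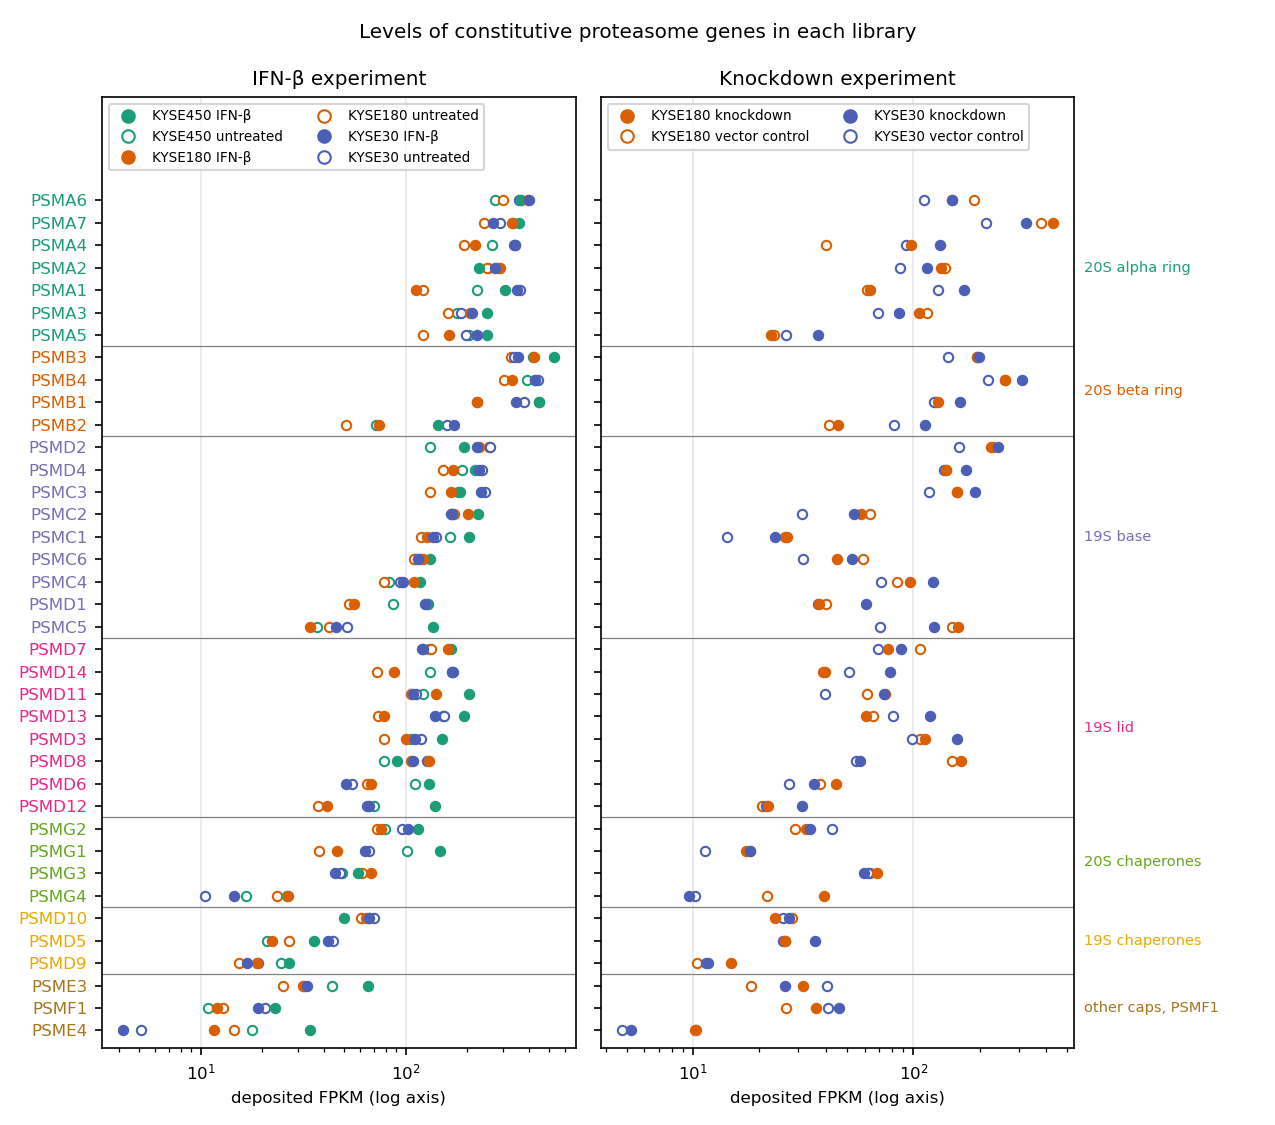
Deposited FPKM of the 38 expressed constitutive proteasome genes in each library (log axis), grouped by role, with the interferon experiment on the left and the knockdown experiment on the right. Filled points are IFN-β or knockdown libraries and open points their controls. In the interferon panel most ring subunits sit at the right and the alternative caps toward the left, with PSME4 at 4.21 to 34.1 FPKM. In the knockdown panel the groups mix more, with the regulator PSMF1 at an average of 37.5 FPKM and the alpha subunit PSMA5 at 27.3 FPKM.

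The highest member on average in the interferon experiment was PSMB3, a structural subunit of the beta ring, with 529 FPKM in IFN-β-treated and 418 FPKM in untreated KYSE450, 423 FPKM in IFN-β-treated and 328 FPKM in untreated KYSE180, and 352 FPKM in IFN-β-treated and 339 FPKM in untreated KYSE30. PSMA6 led the alpha ring with an average of 348 FPKM, PSMD2, a scaffold of the regulatory particle, led the base with 215 FPKM, and PSMD7 led the lid with 139 FPKM. Among the chaperones PSMG2 averaged 90.0 FPKM and PSMD10 averaged 62.8 FPKM. PSME3, the subunit of a nuclear cap that works without ubiquitin, averaged 38.5 FPKM.

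Tissue-restricted members were at or near 0. PSMA8, an alpha subunit known from testis, was listed at 0 in all 10 libraries. PSMB11, the catalytic subunit of the thymus proteasome, was listed at 0 in 7 libraries, and its highest value was 0.0438 FPKM, in vector KYSE180. These 2 members were not tested.

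The order of levels depended on the experiment for some subunits even within 1 line, with separately normalized tables set side by side. In untreated KYSE30 the members stood at a median of 2.15 times their vector KYSE30 level, against 1.21 times for all genes, and single members ranged from 0.50 times for PSMF1, an inhibitor of the core, to 9.84 times for the ATPase gene PSMC1. In untreated KYSE180 the median was 1.40 times the vector level, against 1.26 times for all genes, with a range of 0.28 times for PSMC5, another ATPase gene, to 5.25 times for PSMA5. The ratios ranked alike in both lines (Spearman rho 0.80 over 38 members, which share the tables). PSMC1 has 13 named pseudogenes in GENCODE release 29 and 10 members have 29 between them, and the sources used here do not say how reads of these copies were counted. In addition, 21 members overlap a gene on the opposite strand, and they do not say whether counting used strand.

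The first comparison asked which genes IFN-β changed in the 3 lines. No constitutive proteasome gene passed the test (limma with the cell line as a block, adjusted p under 0.05 over 12429 genes), beside 0.443% of all genes tested, with 0.434% higher and 0.00805% lower after IFN-β. The median log2 change of the 38 members was 0.04, beside -0.01 for all genes, and 20 members lay above 0. At an unadjusted p under 0.05 there was 1 member, beside 9.49% of all genes. On the deposited values, too, no member passed, although 36 of 38 then lay above 0 with a median of 0.19. On those values 87.3% of all genes had a positive ratio in KYSE450, 47.6% in KYSE180 and 46.3% in KYSE30. Without KYSE180 the members' median on scaled values turned to -0.07, with 13 members above 0. The share of all genes above 0 was not counted for either fit.

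Of the 8 exchanged and interferon-linked genes outside the list, 2 passed in the same fit. PSMB9, an inducible catalytic subunit, rose by 3.81 ± 0.35 (log2, SE; adjusted p = 0.0313) and PSME2 by 1.10 ± 0.15 (adjusted p = 0.0466). PSME1 changed by 0.90 ± 0.14 (adjusted p = 0.0659), PSMB8 by 2.07 ± 0.32 (adjusted p = 0.141) and PSMB10 by 0.62 ± 0.26 (adjusted p = 0.538), and none of the 3 passed. The catalytic subunits that they replace gave -0.01 ± 0.15 for PSMB5, -0.05 ± 0.19 for PSMB6 and 0.03 ± 0.14 for PSMB7.

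Among the constitutive members, PSMB2, a structural beta subunit, had the smallest p after IFN-β. It stood at 145 FPKM in IFN-β-treated KYSE450, against 71.5 FPKM in untreated KYSE450, at 73.8 FPKM in IFN-β-treated KYSE180, against 51.0 FPKM in untreated KYSE180, and at 173 FPKM in IFN-β-treated KYSE30, against 158 FPKM in untreated KYSE30. Within each line the IFN-β library was the higher one, while the IFN-β and untreated values overlapped across lines. The fitted change was 0.40 ± 0.15 (log2, SE), with an unadjusted p of 0.0322 and an adjusted p of 0.508.

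On the scaled values 5 of 38 members kept 1 direction in all 3 lines, namely PSMB2, PSMG4, PSMD12, PSME3 and PSMA1, beside 11 of 38 on the deposited values. How many of all genes did so was not counted. PSMG4, a chaperone of the core, had 26.4, 26.8 and 14.6 FPKM in IFN-β-treated KYSE450, KYSE180 and KYSE30, against 16.7, 23.6 and 10.6 FPKM in the untreated cells of these lines, a change of 0.27 ± 0.13 (adjusted p = 0.550). PSMD12, a lid subunit, had 138, 41.3 and 66.5 FPKM in IFN-β-treated KYSE450, KYSE180 and KYSE30, against 69.9, 37.3 and 64.7 FPKM in their untreated cells, a change of 0.23 ± 0.14 (adjusted p = 0.619). PSME3, a cap of the core, had 65.55, 31.5 and 33.0 FPKM in IFN-β-treated KYSE450, KYSE180 and KYSE30, against 43.7, 25.4 and 31.95 FPKM in their untreated cells, a change of 0.16 ± 0.13 (adjusted p = 0.695). PSMA1, an alpha subunit, changed by -0.05 ± 0.14 (adjusted p = 0.921), which turned to 0.10 on deposited values (adjusted p = 0.946). None of these changes passed the test.

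The groups of subunits gave no called gene after IFN-β either. By fitted change, 4 of 7 alpha subunits, 2 of 4 beta subunits, 4 of 9 base subunits and 5 of 8 lid subunits lay above 0, with medians of 0.04, 0.01, -0.04 and 0.05. Of the chaperones and caps, 3 of 4 core chaperones, 0 of 3 base chaperones, and 2 of 3 caps and regulators lay above 0.

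Line by line, the members' ratios pointed in different directions. In KYSE180, 32 of 38 members were higher in the IFN-β library, with a median log2 ratio of 0.25 beside 0.04 for all genes. In KYSE30, 11 of 38 were higher, with a median of -0.05 beside -0.02. In KYSE450, 11 of 38 were higher after scaling, with a median of -0.13 beside -0.04, whereas 36 of 38 were higher on deposited values, with a median of 0.40 beside 0.41 for all genes.

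Within KYSE180 the ratios were positive for 8 of 8 lid subunits, 4 of 4 beta subunits and 6 of 7 alpha subunits, with medians of 0.35, 0.32 and 0.44. Of all genes tested in KYSE180, 54.6% had a positive ratio and 28.1% had a ratio at or above the members' median. With 1 library per arm in each line, these ratios have no replicate check.

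**Figure D2:**
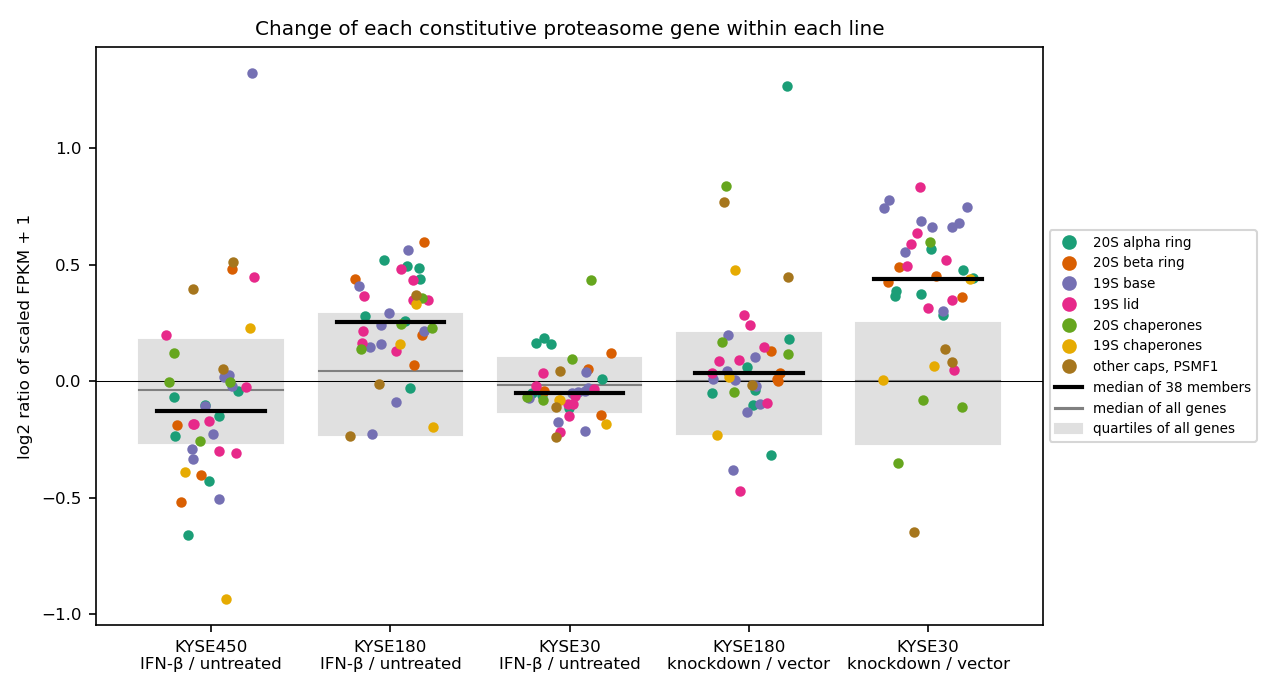
Log2 ratio of IFN-β to untreated, or of knockdown to vector, for each of the 38 members within each line (scaled FPKM with 1 added), colored by role. Black bars are the members' medians (-0.13 in KYSE450, 0.25 in KYSE180 and -0.05 in KYSE30 after IFN-β, and 0.04 in KYSE180 and 0.44 in KYSE30 after knockdown), grey bars the median of all genes and grey boxes their quartiles; the medians in KYSE450 are below 0 after scaling and above 0 on deposited values.

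The largest single ratio after IFN-β belonged to PSMC5, an ATPase of the base, in KYSE450. It stood at 136 FPKM in IFN-β-treated and 37.1 FPKM in untreated KYSE450, a scaled log2 ratio of 1.32, but at 34.3 FPKM in IFN-β-treated and 42.4 FPKM in untreated KYSE180, and at 46.0 FPKM in IFN-β-treated and 52.0 FPKM in untreated KYSE30. The IFN-β library of KYSE450 was therefore alone at the high end, and the fitted change over the 3 lines was 0.31 ± 0.34 (adjusted p = 0.780). The lowest ratio was that of PSMD10, a chaperone of the base also called gankyrin, in KYSE450, with 49.8 FPKM in IFN-β-treated and 66.6 FPKM in untreated cells, a scaled log2 ratio of -0.93.

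The second comparison asked what knockdown of IRF1-AS changed in KYSE30 and KYSE180. In KYSE180 the row taken for IRF1-AS, C5orf56, differed little, at 0.948 FPKM in knockdown and 1.08 FPKM in vector cells. In KYSE30 it stood at 3.04 FPKM in knockdown and 6.86 FPKM in vector cells. No member passed the test, and neither did any of the 12813 genes tested (0.00%), whose smallest adjusted p was 0.156. With 2 lines and 4 libraries the members' smallest adjusted p was 0.757. At an unadjusted p under 0.05 there were 2 members, PSMA4 and PSMD11, beside 6.59% of all genes. The fitted change was above 0 in 35 of 38 members, with a median of 0.24 beside 0.00 for all genes, of which 50.3% lay above 0.

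The positive direction rested on KYSE30. There, 34 of 38 members were higher in the knockdown library, with a median log2 ratio of 0.44 beside 0.00 for all genes, of which 49.2% were higher and 12.7% reached the members' median. All 28 ring, base and lid subunits tested were higher in knockdown KYSE30, with log2 ratios of 0.05 to 0.83. The 4 members that were lower there were PSME3, PSMG2, PSMG3 and PSMG4, that is, a cap and core chaperones and no subunit. In KYSE180, 24 of 38 members and 17 of the 28 subunits were higher in the knockdown library, with a members' median of 0.04 beside 0.00 for all genes.

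In KYSE30 the 9 base subunits had the highest group median, 0.68, with ratios of 0.30 to 0.78. The highest single ratio was that of the lid subunit PSMD11 (0.83). Among the ATPase genes of the base, PSMC2 had 54.0 FPKM in knockdown and 31.1 FPKM in vector KYSE30. PSMC6 had 52.4 FPKM in knockdown and 31.5 FPKM in vector KYSE30. In KYSE180 they had 57.8 FPKM (PSMC2) and 44.9 FPKM (PSMC6) after knockdown, against 63.8 FPKM (PSMC2) and 59.2 FPKM (PSMC6) with vector, so both were lower there. The lid subunits of KYSE30 had a median ratio of 0.51, the beta subunits 0.44 and the alpha subunits 0.39.

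Beside these ratios, ISG15, an interferon-stimulated gene, was at 346 FPKM in knockdown and 1073 FPKM in vector KYSE30, and at 23.7 FPKM in knockdown and 32.6 FPKM in vector KYSE180. In the separately normalized interferon experiment ISG15 was at 1686 FPKM in IFN-β-treated and 45.5 FPKM in untreated KYSE30. In KYSE180 ISG15 was there at 809 FPKM with IFN-β and 14.2 FPKM untreated. Its part in the members' ratios was not tested. The exchanged and interferon-linked genes that could be tested gave fitted changes after knockdown of -0.24 ± 0.28 for PSME1, -0.22 ± 0.19 for PSME2 and 0.05 ± 0.19 for PSMB10, and the catalytic subunits 0.27 ± 0.24 for PSMB5, 0.39 ± 0.20 for PSMB6 and 0.21 ± 0.20 for PSMB7. None of these passed. PSMB8 and PSMB9 were not among the genes tested in the knockdown experiment.

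PSMA4, an alpha subunit, had the largest fitted change after knockdown. It stood at 97.6 FPKM in knockdown and 40.2 FPKM in vector KYSE180, and at 132 FPKM in knockdown and 92.3 FPKM in vector KYSE30. On deposited values both knockdown libraries were above both vector libraries, with the vector KYSE180 library far below the other 3. On scaled values the groups overlapped, with knockdown KYSE180 (94.8) just below vector KYSE30 (95.3). The change was 0.87 ± 0.25 (log2, SE; unadjusted p = 0.0169, adjusted p = 0.757).

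PSMD11, a lid subunit, stood at 74.4 FPKM in knockdown and 61.3 FPKM in vector KYSE180, and at 73.2 FPKM in knockdown and 39.9 FPKM in vector KYSE30. The groups did not overlap, and the change was 0.56 ± 0.22 (unadjusted p = 0.0487, adjusted p = 0.757). PSMC4, an ATPase of the base, stood at 96.2 FPKM in knockdown and 84.3 FPKM in vector KYSE180, and at 122 FPKM in knockdown and 71.2 FPKM in vector KYSE30, with a change of 0.47 ± 0.22 (adjusted p = 0.801). PSMB2, the member with the smallest p after IFN-β, changed by 0.28 ± 0.19 after knockdown (adjusted p = 0.838).

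**Figure D3:**
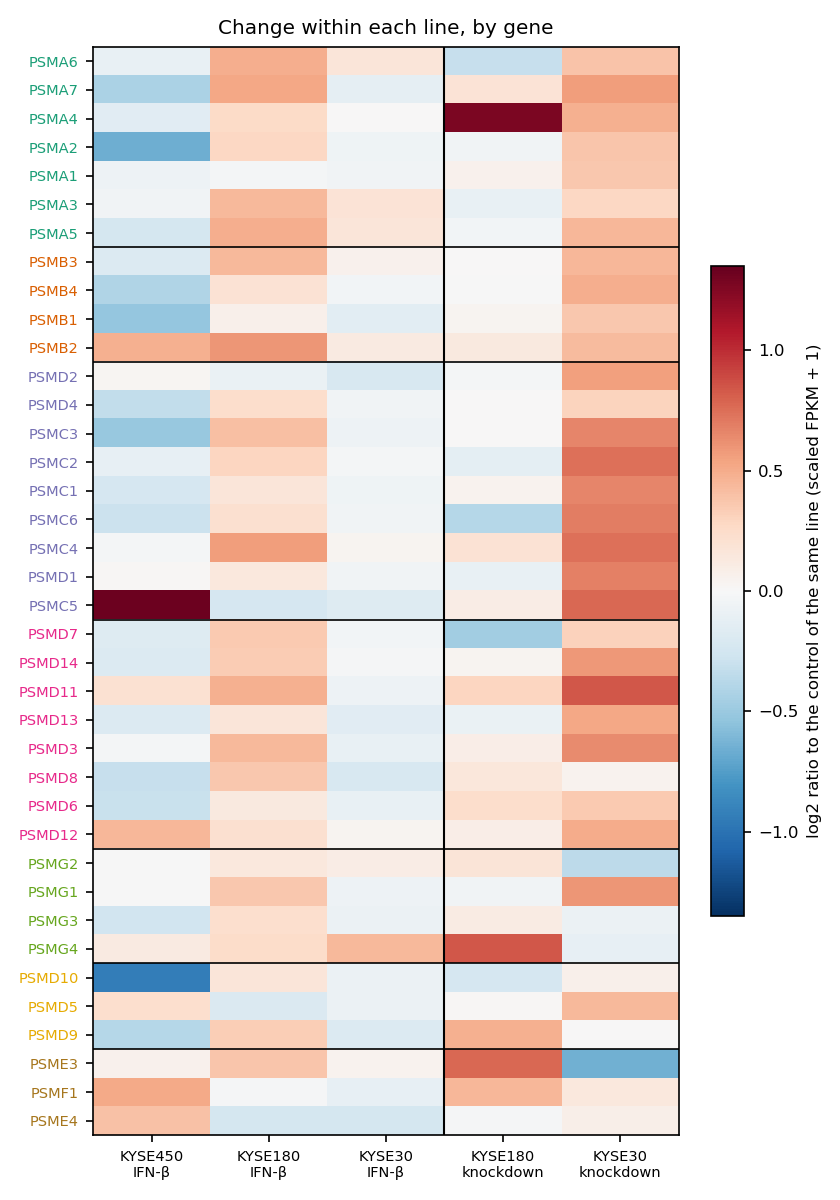
Scaled log2 ratio of each member to the control of the same line, with genes in rows by role and lines in columns, IFN-β on the left of the vertical line and knockdown on the right (red higher, blue lower than the control). The column of KYSE30 after knockdown is red for all 28 ring, base and lid subunits, and single dark cells mark PSMC5 in KYSE450 after IFN-β (1.32) and PSMA4 in KYSE180 after knockdown (1.27); the signs in KYSE450 depend on the scaling.

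Lists of genes around the proteasome were read in the same fits. None of 12 further subunits and associated proteins passed after IFN-β or after knockdown. AKIRIN2, which brings proteasomes into the nucleus, changed by 0.39 ± 0.16 after IFN-β (adjusted p = 0.514), and TXNL1, a thioredoxin-like protein bound to the regulatory particle, by 0.57 ± 0.21 after knockdown (adjusted p = 0.757). POMP, the maturation factor of the core, changed by 0.07 ± 0.15 after IFN-β and 0.35 ± 0.22 after knockdown.

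The NFE2L1 axis, 10 genes for the factor, its processing and its small MAF partners, gave no called gene either. NFE2L1 itself changed by 0.31 ± 0.13 after IFN-β (adjusted p = 0.521) and by -0.09 ± 0.19 after knockdown (adjusted p = 0.958). MAFF, one of the partners, changed by 0.71 ± 0.15 after IFN-β (adjusted p = 0.188) and by -0.92 ± 0.23 after knockdown (adjusted p = 0.734). Of 11 genes for ubiquitin supply and shuttling, none passed in either comparison, and the ubiquitin fusion gene RPS27A gave -0.55 ± 0.15 after IFN-β (adjusted p = 0.394).

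The lines themselves differed in these genes, which bears on any value averaged over them. KYSE180 had lower levels than KYSE30 for many members in the interferon experiment. Of 38 members, 17 were lower in KYSE180 and 2 higher, beside 25.1% of all genes lower and 20.5% higher, so 45.6% of all genes were called. The median difference was -0.44 beside -0.06 for all genes. By role, 3 of 4 beta subunits, 3 of 7 alpha subunits, 3 of 9 base subunits and 4 of 8 lid subunits were lower, and no ring, base or lid subunit was higher. The summed squamous markers were 3950 and 5859 FPKM in the IFN-β and untreated libraries of KYSE180, against 215 and 212 FPKM in those of KYSE30, and their part in the members' difference was not tested.

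In the knockdown experiment, 3 of 38 members were higher in KYSE180 than in KYSE30 and 2 lower, beside 14.8% of all genes higher, 13.7% lower and 28.5% in either direction. The median difference was 0.01. The members' median difference was -0.30 between the IFN-β libraries, -0.58 between the untreated libraries, -0.21 between the knockdown libraries and 0.16 between the vector libraries, so it lay below 0 in each of the 4 arms but the vector libraries. In all 4 arms 12 members were lower in KYSE180, namely PSMA1, PSMA4, PSMA5, PSMB1, PSMB2, PSMD4, PSMD5, PSMD12, PSMD13, PSMD14, PSMF1 and PSMG2, and PSME4 and PSMG4 were higher. Of all genes tested, 48.9% to 54.6% were lower in KYSE180 in a single arm, and the share in all 4 arms was not counted.

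**Figure D4:**
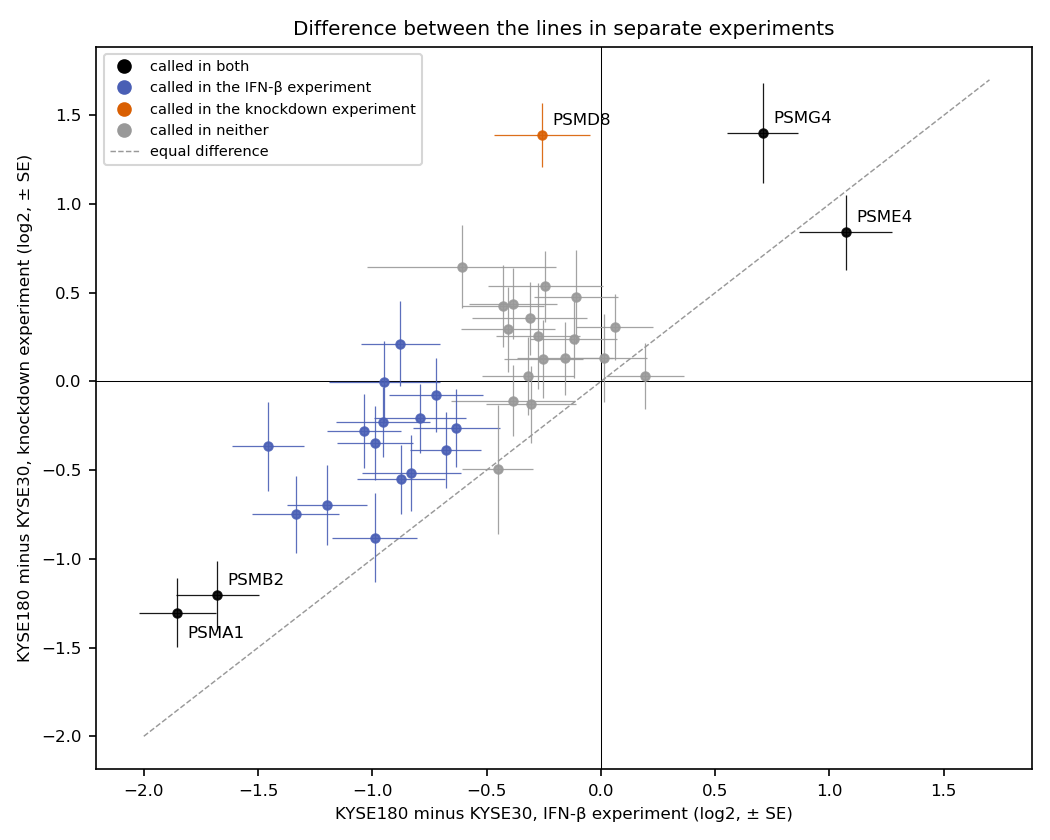
Fitted log2 difference of KYSE180 minus KYSE30 for each member in the interferon experiment (horizontal) and the knockdown experiment (vertical), with bars of 1 SE on each side. PSMA1 and PSMB2 at the lower left and PSME4 and PSMG4 at the upper right were called in both experiments, 15 more in the interferon experiment alone, and PSMD8 in the knockdown experiment alone.

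The members called in both experiments were 4, all with the same sign, which is 21.1% of the members called in the interferon experiment and 80.0% of those called in the knockdown experiment. Of all genes tested, 45.6% were called in the interferon experiment and 28.5% in the knockdown experiment. The share of all genes called in both was not counted. Across the 38 members the differences of the experiments, which share no library, ranked with a Spearman rho of 0.78. Members share each library, so this describes the tables and is not a test.

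PSMA1 (chr11:14504874-14643635) had the largest difference in the interferon experiment, and the third largest in the knockdown experiment, after PSMG4 and PSMD8. It stood at 113 and 121 FPKM in the IFN-β and untreated libraries of KYSE180, against 348 and 360 FPKM in those of KYSE30, and at 63.7 and 61.4 FPKM in the knockdown and vector libraries of KYSE180, against 169 and 129 FPKM in those of KYSE30. The lines did not overlap in either experiment. The difference was -1.85 ± 0.17 in the interferon experiment (adjusted p = 0.000365) and -1.30 ± 0.19 in the knockdown experiment (adjusted p = 0.00957).

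PSMB2 (chr1:35599544-35641844) had 73.8 and 51.0 FPKM in the IFN-β and untreated libraries of KYSE180, against 173 and 158 FPKM in those of KYSE30. In the knockdown experiment it had 45.3 and 41.5 FPKM in the knockdown and vector libraries of KYSE180, against 112 and 81.9 FPKM in those of KYSE30. The lines again did not overlap, with differences of -1.68 ± 0.18 (adjusted p = 0.000707) and -1.21 ± 0.19 (adjusted p = 0.0114).

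PSME4 (chr2:53864067-53970840), the gene of a large single-chain cap linked to histone breakdown, ran the other way. It had 11.6 and 14.6 FPKM in the IFN-β and untreated libraries of KYSE180, against 4.21 and 5.13 FPKM in those of KYSE30, and 10.1 and 10.3 FPKM in the knockdown and vector libraries of KYSE180, against 5.20 and 4.77 FPKM in those of KYSE30. The differences were 1.07 ± 0.20 (adjusted p = 0.00621) and 0.84 ± 0.21 (adjusted p = 0.0385). PSMG4 (chr6:3231403-3303373) had 26.8 and 23.6 FPKM in the IFN-β and untreated libraries of KYSE180, against 14.6 and 10.6 FPKM in those of KYSE30, and 39.2 and 21.6 FPKM in the knockdown and vector libraries of KYSE180, against 9.53 and 10.2 FPKM in those of KYSE30. Its differences were 0.71 ± 0.15 (adjusted p = 0.0104) and 1.40 ± 0.28 (adjusted p = 0.0216). In the interferon experiment both calls rested on KYSE30 libraries. Without the IFN-β library of KYSE30 the difference was 0.90 for PSME4 (adjusted p = 0.0778) and 0.82 for PSMG4 (adjusted p = 0.0622), and without its untreated library 0.56 for PSMG4 (adjusted p = 0.157).

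**Figure D5:**
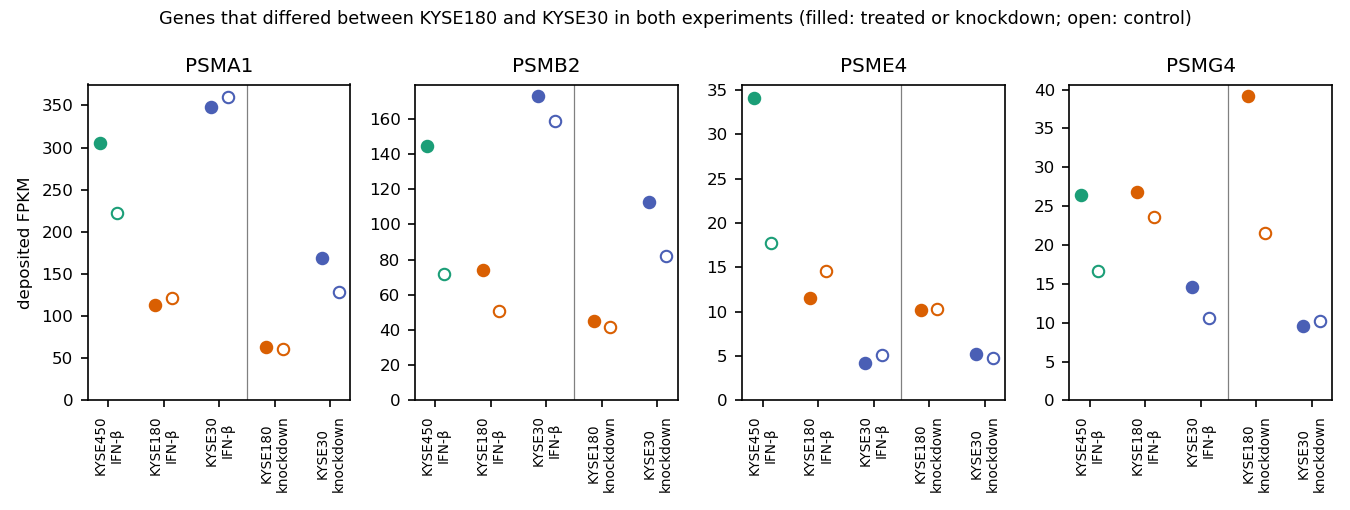
Deposited FPKM of PSMA1, PSMB2, PSME4 and PSMG4 in each library (linear axes from 0), with lines of the interferon experiment left of the grey rule and lines of the knockdown experiment right of it. Filled points are IFN-β or knockdown libraries and open points controls. PSMA1 and PSMB2 are lower and PSME4 and PSMG4 higher in every KYSE180 library than in any KYSE30 library of the same experiment.

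Other subunits differed in the interferon experiment without passing in the knockdown experiment. PSMD1, a scaffold of the base, had 56 and 53.2 FPKM in the IFN-β and untreated libraries of KYSE180, against 124 and 128 FPKM in those of KYSE30, a difference of -1.46 ± 0.16 (adjusted p = 0.000689). PSMD14, the deubiquitinating enzyme of the lid, had 87.9 and 72.6 FPKM in KYSE180, against 168 and 170 FPKM in KYSE30, a difference of -1.34 ± 0.19 (adjusted p = 0.00200). In the knockdown experiment the differences were -0.37 ± 0.25 for PSMD1 (adjusted p = 0.321) and -0.75 ± 0.22 for PSMD14 (adjusted p = 0.0582). PSMD8, a lid subunit, passed in the knockdown experiment alone, with 164 and 149 FPKM in the knockdown and vector libraries of KYSE180, against 57.5 and 54.6 FPKM in those of KYSE30 (1.39 ± 0.18, adjusted p = 0.00697), and gave -0.26 ± 0.21 in the interferon experiment. Whether the differences of the experiments themselves differ was not tested. Without the untreated KYSE30 library 6 members were called between KYSE180 and KYSE30 in the interferon experiment, and without its IFN-β library 8.

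KYSE450 differed from KYSE30 in 9 members, 6 higher and 3 lower, beside 22.2% of all genes higher, 24.2% lower and 46.4% in either direction. The median difference was 0.05. PSME4 stood at 34.1 and 17.7 FPKM in the IFN-β and untreated libraries of KYSE450, against 4.21 and 5.13 FPKM in those of KYSE30, a difference of 2.15 ± 0.20 (adjusted p = 0.000455). PSMD6, a lid subunit, stood at 130 and 111 FPKM in KYSE450, against 51.0 and 54.6 FPKM in KYSE30 (1.12 ± 0.17, adjusted p = 0.00260).

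The other higher members included the core chaperones PSMG1 at 0.86 ± 0.17 (adjusted p = 0.00747) and PSMG4 at 0.67 ± 0.15 (adjusted p = 0.0129), and with them PSME3 (0.66 ± 0.16, adjusted p = 0.0140) and PSMD12 (0.53 ± 0.17, adjusted p = 0.0373). Lower in KYSE450 were PSMB2 (-0.74 ± 0.18, adjusted p = 0.0158), the base chaperone PSMD5 (-0.67 ± 0.16, adjusted p = 0.0155) and PSMD2 (-0.63 ± 0.17, adjusted p = 0.0248). The split of higher to lower calls was 5 to 5 when the tables were rescaled to their sum without the structural RNAs RMRP and RPPH1. Without the untreated or without the IFN-β library of KYSE30, 2 members were called, and PSMG1, PSMG4, PSMB2, PSMD5 and PSMD2 no longer passed (adjusted p of 0.0613 to 0.298). Without the untreated KYSE450 library PSMB2, PSMD5, PSMD2 and PSMG4 no longer passed (adjusted p of 0.0779 to 0.125).

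KYSE450 was higher than KYSE180 in 18 members and lower in none, beside 25.9% of all genes higher, 23.3% lower and 49.3% in either direction. The median difference was 0.58 beside 0.04 for all genes, and 34 of 38 members lay above 0. The called members were 6 of 8 lid subunits, 3 of 7 alpha, 2 of 4 beta and 2 of 9 base subunits, 2 of 4 core chaperones, 1 of 3 base chaperones, and the caps PSME3 and PSME4.

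PSMG1 had the largest difference from KYSE180, with 147 and 102 FPKM in the IFN-β and untreated libraries of KYSE450, against 46.4 and 37.8 FPKM in those of KYSE180 (1.74 ± 0.17, adjusted p = 0.000556). PSMD12 stood at 138 and 69.9 FPKM in KYSE450, against 41.3 and 37.3 FPKM in KYSE180 (1.52 ± 0.17, adjusted p = 0.000755), and PSMD13, another lid subunit, at 193 and 152 FPKM, against 78.6 and 73.7 FPKM (1.38 ± 0.17, adjusted p = 0.00128). The lines did not overlap for these 3 genes. PSMA1 was higher by 1.37 ± 0.17 (adjusted p = 0.00114). Rescaled to the sum without RMRP and RPPH1, 11 members were higher and 3 lower.

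Long non-coding genes named as antisense to 4 members are listed in the tables of the interferon experiment. PSMD5-AS1 stood at 3.61 and 5.40 FPKM in the IFN-β and untreated libraries of KYSE450 and at 3.89 and 7.92 FPKM in those of KYSE180, against 27.5 and 22.6 FPKM in those of KYSE30. PSMD5 itself was the base chaperone that was lower in both KYSE450 and KYSE180 than in KYSE30, so the pair ran the same way between lines, but with the strand setting unknown their reads cannot be told apart. PSMA3-AS1 stood at 3.19 and 2.34 FPKM in the IFN-β and untreated libraries of KYSE450, at 9.57 and 12.4 FPKM in those of KYSE180 and at 8.21 and 18.7 FPKM in those of KYSE30. PSMG3-AS1 and PSMD6-AS2 stayed at or under 1.24 FPKM.

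The members differed in how far they varied over the libraries of an experiment. On the scaled values of the interferon experiment the highest library of PSMG3, a core chaperone, was 1.28 times its lowest (48.5 to 62.0), the narrowest range of the 38 members, and that of PSME4 was 6.55 times (4.49 to 29.4), the widest. PSMB2 followed at 4.18 times, PSMG1 at 3.86 times and PSMC5, a base ATPase, at 3.75 times. The narrow end depended on the scaling, since on the deposited values PSMC6 spanned 1.20 times and PSMA2 1.26 times, against 1.46 and 1.58 times when scaled. On the scaled values of the knockdown experiment PSMG3 was again the narrowest, at 1.09 times (60.5 to 66.1), and PSMG4 the widest, at 3.94 times.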

How the data were processed

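RNA-seq of 10 libraries from 3 human carcinoma cell lines was used. The authors deposited 1 table of FPKM for each library, as named in the file headers. TopHat, HTSeq and the hg38 build are named in the submitters' processing notes, without versions or roles; those notes give no annotation, strand setting or read depth, so the precision of a single library is unknown. FPKM allow no count model, and whole reads were not recovered from them.

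Transcripts of the same long non-coding gene were added up (16044 genes). In the knockdown experiment, 946 rows of alternate gene copies were added to the gene of the same name. Libraries were scaled by median-of-ratios factors (0.804 to 1.16) from genes above 0 in every library of an experiment. Genes at 1 FPKM or more in at least 3 libraries (interferon) or 2 (knockdown) were fitted as log2(FPKM + 1), which understates changes of low genes, with limma 3.58.1 (trend and robust options, statmod 1.5.0) in R 4.3.3. The model held treatment and cell line; line differences came from the same fit. Benjamini-Hochberg adjustment ran over all genes tested, with a threshold of 0.05, and a gene under that value is called. Libraries with the same number come from the same line, and their deviations from group means correlated at 0.841 to 0.910 across genes. The fit was also run on simulated data, with the same noise for every gene and the same treatment effect in each line. That run does not check the fit for genes whose change differed between lines. Scaling, filter, pseudocount, trend option, block and single libraries were varied.

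Positions are from GENCODE release 29 (GRCh38), promoters from RefSeq (GRCh38.p14). The members and lists were chosen with earlier results of these data known. All members are covered; full values are given for called members (the 4 largest in each direction where there are more than 8), for the 3 highest and 3 lowest changes with 1 direction in every line at an average of 5 FPKM, for role group leaders and for members under the filter. PSMC2, PSMC5, PSMC6 and PSMD10 were added after their values were seen.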

Additional observations from a re-analysis of the deposited data

Results flagged for a closer look

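The members' median log2 ratio after IFN-β differed in sign between lines, at -0.13 in KYSE450, 0.25 in KYSE180 and -0.052 in KYSE30. The difference was not tested, since each line has 1 library per arm, and the sign in KYSE450 is positive on deposited values.

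Opposite ratios of at least 0.3 (log2, a size chosen after the values were seen) came up for 4 members after IFN-β. In KYSE450 and KYSE180 the ratios were -0.43 and 0.52 for PSMA7, -0.51 and 0.41 for PSMC3, -0.31 and 0.37 for PSMD8, and -0.39 and 0.33 for PSMD9. These differences were not tested, and their sign in KYSE450 depends on the scaling.

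After IRF1-AS knockdown, 4 members had opposite ratios of that size in KYSE180 and KYSE30, namely -0.31 and 0.39 for PSMA6, -0.38 and 0.69 for PSMC6, -0.47 and 0.32 for PSMD7, and 0.77 and -0.65 for PSME3. These differences were not tested.

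The difference of KYSE180 minus KYSE30 had opposite signs in the experiments for 14 of 38 members. For 4 of them the scaled values of the lines did not overlap in either experiment. Neither count was taken over all genes, so the 14 and the 4 have no background share beside them. In the interferon and the knockdown experiment the difference was -0.31 and 0.36 for PSMA2, -0.38 and 0.44 for PSMA3, -0.43 and 0.43 for PSMC1, and -0.61 and 0.65 for PSMC5. None of these 8 values passed the test in its own experiment, and the difference between experiments was not tested.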

How the results depend on the processing

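No member was called after IFN-β or after IRF1-AS knockdown under any alternative run, while the genes called after IFN-β ranged from 13 to 237. Leaving out 1 line gave members' medians of -0.0654 to 0.108 after IFN-β, with 0 members called, and of 0.0366 to 0.441 after knockdown, where 1 remaining line allows no test. The same-numbered libraries are pairs from 1 line; without the replicate block 0 members were called in either comparison, and 13 genes in all after IFN-β, against 55 with it. Leaving out single libraries gave 6 to 21 members called between KYSE180 and KYSE30 in the interferon experiment, 2 to 13 between KYSE450 and KYSE30, and 12 to 24 between KYSE450 and KYSE180, with the lone library of a line assumed to vary like the others. With no filter on low values, 1 member was called between KYSE180 and KYSE30 in the knockdown experiment (PSMD8), against 5; PSMA1 and PSMB2 then had adjusted p of 0.0523 and 0.0533, PSME4 and PSMG4 of 0.0840 and 0.0825. On deposited values 14 members were called between KYSE180 and KYSE30 in the interferon experiment, 7 between KYSE450 and KYSE30, 16 between KYSE450 and KYSE180, and 5 between KYSE180 and KYSE30 in the knockdown experiment, against 19, 9, 18 and 5 with scaling, and PSMD5 no longer passed between KYSE450 and KYSE30 (adjusted p = 0.0675). The factors from all rows were an alternative chosen after seeing the data. No called gene changed sign. Read depth is unknown, so changes of low members such as PSME4 have no counting error beside them.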
